A study of Mus musculus with 9 samples.

Results

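The genes described here encode enzymes that add methyl groups to histone lysines or take them off, together with close relatives of those enzymes. They were taken from the expression arrays by symbol: Kdm1 to Kdm8, Kmt2 and Kmt5, Setd and Setdb, Nsd1 to Nsd3, Ehmt, Suv39h, Dot1l and Smyd genes, without Kdm2b. This gave 47 of the 18193 genes tested, each read by the brightest, on average over the 9 arrays, of the probe sets assigned to that symbol alone. Of the 47 genes, 30 belong to methyltransferase or SET domain families and 17 to demethylase families. Suv39h1 was not analysed here.

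The RNA came from L8057 cells, a mouse megakaryocytic line, in 3 groups of 3 arrays. Lentivirus delivered a hairpin against CBFb to the CBFb_KD cells, a hairpin against Ring1b to the Ring1b_KD cells, and an empty vector to the Control cells. All groups shared the rest of the protocol. Puromycin, which selects infected cells, was added 48 h after infection together with 50 nM of the phorbol ester TPA, which matures the line towards megakaryocytes, and RNA was collected 72 h later. No group was left without virus, puromycin or TPA, and a control hairpin is not among the groups used here. The submitters describe the arrays of a group as biological triplicates, but no label says that each came from its own infection, and the p-values therefore reflect only the spread between these arrays. The labels name 1 line and no clones.

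As background, methyl groups on histone lysines are written mostly by enzymes with a SET domain and, at lysine 79 of histone H3 (H3K79), by DOT1L. They are erased by flavin-dependent amine oxidases (LSD1 and LSD2) or by oxygenases with a JmjC domain. Methylated H3K4 is typical of active promoters and enhancers, H3K36 and H3K79 of transcribed gene bodies, and H3K9, H3K27 and H4K20 of several kinds of silent or compacted chromatin. Ring1b is the ubiquitin ligase of Polycomb repressive complex 1, which works beside the H3K27 methyltransferase complex. CBFb is the partner that stabilises RUNX proteins on DNA. In blood cells LSD1 acts with the repressors GFI1 and GFI1B in the making of platelets and red cells, and KMT2A (MLL1) is a frequent partner in leukaemic gene fusions.

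The arrays matched their labels for the targeted transcripts. Cbfb stood at 9.19 ± 0.11 (SD, n = 3, log2 signal) in CBFb_KD against 12.36 ± 0.12 in Control, and Rnf2, the gene for Ring1b, at 8.98 ± 0.08 in Ring1b_KD against 10.65 ± 0.08. Of 13 measured megakaryocyte markers 7 were at or above the median gene (7.42), among them Pf4 and Itga2b. Itgb3, Vwf, Gp6, Selp and Tubb1 were below it in every group mean, and Ppbp was above it in the CBFb_KD mean alone. Of markers of other cell types 3 of 6 erythroid, 4 of 11 granulocyte and monocyte, 2 of 7 mast cell, 3 of 8 lymphocyte and 1 of 6 fibroblast genes were at or above that level. The mean over the megakaryocyte markers ran from 9.03 to 9.09 in CBFb_KD, from 7.998 to 8.44 in Ring1b_KD and from 8.04 to 8.36 in Control, and that over the erythroid markers from 8.29 to 8.48, 7.86 to 8.05 and 7.76 to 7.86. The mean over the mast cell markers ran from 7.16 to 7.28 in CBFb_KD, below all other arrays, from 7.61 to 7.87 in Ring1b_KD and from 7.41 to 7.76 in Control. Mitotic genes fell in CBFb_KD. Of 19 measured, 18 fell there, with a median log2 fold change of -0.53, where 15.4% of all genes were called (7.6% lower). In Ring1b_KD 2 fell, with a median of -0.20, where 12.2% of all genes were called (6.57% lower). That count of 2 is not read as a result about the mitotic genes. It was 10 as deposited and 12 with median centring, where 1709 and 2543 of all genes were lower. When 1 array was left out it was from 0 to 4. The part of cell maturation, of other cell types' genes and of division in the values below was not tested, and in bulk RNA fewer cells of a type cannot be told apart from less RNA per cell.

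Counts of changed genes came from limma on log2 values, with p-values adjusted by Benjamini-Hochberg over all 18193 genes and a call at an adjusted p under 0.05. In CBFb_KD against Control 9 of the 47 genes were called (19.1%), 4 higher and 5 lower, where 15.4% of all genes were called (7.78% higher and 7.6% lower). The block fit on those 6 arrays, in which same-numbered arrays are paired, called 13 (6 higher and 7 lower), where 21.5% of all genes were called. In Ring1b_KD against Control 11 were called (23.4%), 7 higher and 4 lower, where 12.2% of all genes were (5.66% and 6.57%). Between CBFb_KD and Ring1b_KD 14 were called (29.8%), 5 higher and 9 lower in CBFb_KD, where 19.4% of all genes were (10.1% and 9.31%). The arrays of the groups compared did not overlap for 17, 22 and 23 of the 47 genes in these comparisons, where 31.6%, 32.9% and 33.8% of all genes had no overlap. A moderated F test over the 3 groups called 18 of the 47, against 25.8% of all genes. The family is brighter than the average gene, with 43 of 47 at or above the median gene. Among the 9398 genes whose highest group mean reached that level the shares were alike: 27.9% of the 43 and 31.8% of all in CBFb_KD, 27.9% and 26.9% in Ring1b_KD, and 41.9% and 38.9% between the knockdowns. At that brightness the counts called in the 3 comparisons are no result about the family as a whole. The counts without overlap and by the F test were not set beside brighter genes. They are not read as a result about the family either. The role groups below are smaller still, and their counts are likewise not read as results about a group. The median log2 fold change of the 47 was 0.01 in CBFb_KD and -0.05 in Ring1b_KD, beside -0.01 and 0.01 over all genes. Both knockdowns are set against the same Control arrays, so their values are given side by side and the difference between them is tested directly.

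The direction of the calls in Ring1b_KD depended on how the arrays were scaled and on single arrays. The array medians of the deposited values ran from 6.51 to 6.65, and the values given here were quantile normalized. With the values as deposited 3 of the 47 were higher and 10 lower in Ring1b_KD, and with each array centred on its median 1 was higher and 14 lower. All genes turned the same way, from 1029 higher and 1196 lower to 882 and 1709 as deposited and 352 and 2543 with median centring. Between the knockdowns the split went from 5 higher and 9 lower in CBFb_KD to 10 and 1 as deposited and 15 and 0 with median centring, and that of all genes from 1843 and 1693 to 2118 and 1284 and to 2725 and 512. The split of the 47 also moved when 1 array was left out. In Ring1b_KD it was 2 higher and 6 lower without Ring1b_KD array 2, with 5 of the 11 calls shared, 2 and 4 without Control array 1, and 3 and 3 without Control array 3. With the mean of all probe sets of a gene it was 1 and 3. Between the knockdowns leaving out Ring1b_KD array 2 gave 7 and 3, Ring1b_KD array 3 gave 4 and 4, CBFb_KD array 2 gave 5 and 4, and CBFb_KD array 3 gave 4 and 3. That split was 5 and 3 with only the arrays of both knockdowns in the fit, and 8 and 3 with the mean of probe sets. Median centring moved the median log2 fold change of the brighter genes in Ring1b_KD from 0.02 to -0.14, and as deposited it was -0.05. In CBFb_KD the split was 4 and 6 as deposited and 3 and 6 with median centring. The increase that stayed called in Ring1b_KD under all 3 scalings was that of Kdm5a, read by 1 of its 6 probe sets. The decreases of Setd6, Suv39h2, Smyd3 and Kdm1b in Ring1b_KD were called under all 3.

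**Figure D1:**
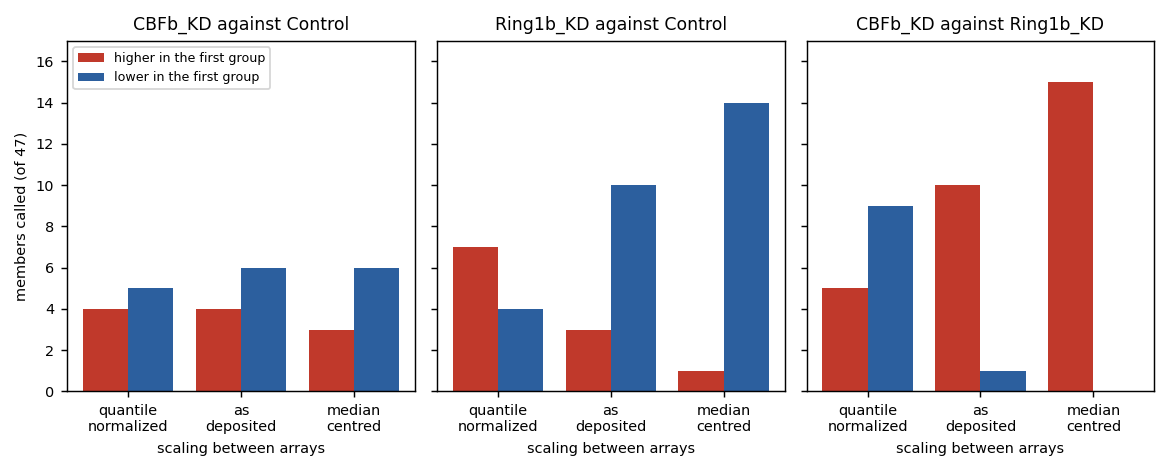
Number of the 47 genes called higher (red) and lower (blue) in the first group of each comparison (vertical axis) under 3 scalings of the arrays (horizontal axis). In CBFb_KD against Control the split stays between 4 and 5, 4 and 6 or 3 and 6, while in Ring1b_KD against Control it goes from 7 and 4 to 1 and 14.

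Setd6 and Suv39h2 fell, and Kdm3a and Kdm5b rose, in each knockdown against Control. The falls were kept in every alternative run, but the rises were not. In Ring1b_KD the Kdm3a rise was not called with median centring (0.27). The Kdm5b rise there was not called as deposited (0.17) or with median centring (0.08). With the mean of its probe sets Kdm5b was called in neither knockdown (0.11 in CBFb_KD and 0.04 in Ring1b_KD). Both comparisons use the same Control arrays, so the second is no independent repeat of the first. The promoters of these 4 genes are shown because in the main fit each was called the same way in both groups. They follow as the 250 bases before a start site, 5′ to 3′ on the gene's strand, from RefSeq on GRCm38.p6. The start site is the one of the promoter table and can lie inside the gene as annotated, since a gene's coordinates span all its transcripts. This is so for Setd6, by 279 bases, and Kdm3a, by 73 bases, and for 22 of the 35 windows in all. RefSeq promoters were matched for 35 of the 47 genes, and where a gene had several the first listed was used. Capitals mark matches on either strand to the RUNX core TGTGGT, the CCAAT box CCAAT, the GC box GGGCGG, or the E2F words TTTCCCGC, TTTCGCGC, TTTGCCGC and TTTGGCGC. In these 4 windows the RUNX and E2F words had no match, so the capitals are GC and CCAAT boxes, which do not overlap each other.
Setd6, chr8:95715663-95715912, plus strand: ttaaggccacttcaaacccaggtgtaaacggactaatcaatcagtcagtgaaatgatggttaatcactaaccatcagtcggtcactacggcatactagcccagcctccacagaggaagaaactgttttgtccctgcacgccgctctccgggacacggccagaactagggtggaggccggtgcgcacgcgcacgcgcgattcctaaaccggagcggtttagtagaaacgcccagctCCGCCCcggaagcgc
Suv39h2, chr2:3474987-3475236, minus strand: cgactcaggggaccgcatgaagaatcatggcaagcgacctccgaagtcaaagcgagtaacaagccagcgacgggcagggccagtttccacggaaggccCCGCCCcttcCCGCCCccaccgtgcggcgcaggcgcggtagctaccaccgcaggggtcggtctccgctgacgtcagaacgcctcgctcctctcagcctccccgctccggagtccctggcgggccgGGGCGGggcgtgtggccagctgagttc
Kdm3a, chr6:71632918-71633167, minus strand: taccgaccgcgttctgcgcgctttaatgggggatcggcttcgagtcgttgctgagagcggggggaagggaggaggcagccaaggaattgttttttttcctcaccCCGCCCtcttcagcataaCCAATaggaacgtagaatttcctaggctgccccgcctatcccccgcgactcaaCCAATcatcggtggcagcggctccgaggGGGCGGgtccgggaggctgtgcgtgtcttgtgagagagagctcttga
Kdm5b, chr1:134559928-134560177, plus strand: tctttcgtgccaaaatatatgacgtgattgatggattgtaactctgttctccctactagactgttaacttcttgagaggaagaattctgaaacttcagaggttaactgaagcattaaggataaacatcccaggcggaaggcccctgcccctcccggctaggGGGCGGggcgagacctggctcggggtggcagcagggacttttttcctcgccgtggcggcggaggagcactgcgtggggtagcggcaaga
Each of these windows held a GC box, with 1 match for Setd6, 3 for Suv39h2, 2 for Kdm3a and 1 for Kdm5b. A GC box was present in 22 of the 35 windows of the family (62.9%) and in 32.9% of 27025 promoters of the same length. The promoters compared were not chosen for like base composition or brightness, so these shares are not read as a trait of the family. The Kdm3a window also held 2 CCAAT boxes, a motif found in 15 of 35 windows and 34.5% of all promoters. The RUNX core was found in 3 of 35 windows (Kdm5c, Setd5 and Smyd1), none of a gene called in any comparison, and in 14.2% of all promoters. The called genes Kdm2a, Kdm5a, Kmt2e, Nsd3 and Smyd3 had no window to search. The start site used for Setd5 lies 27673 bases inside the gene as annotated. An E2F word was found in 1 window, that of Kmt5c, and in 1.91% of all. These matches describe letters in a short window and say nothing about binding.

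Setd6 (chromosome 8, 95715634 to 95721507 on GRCm38.p6), whose product methylates the NF-kappaB subunit RELA, had the largest change of the family in both knockdowns. Its log2 signal was 8.05, 8.20 and 8.25 on the Control arrays, 7.59, 7.29 and 7.48 in CBFb_KD, and 6.998, 7.05 and 7.04 in Ring1b_KD. The 3 groups did not overlap, with Control highest and Ring1b_KD lowest. Setd6 fell 1.64-fold in CBFb_KD (log2 fold change -0.72 with SE 0.0903, limma adjusted p = 0.0002) and 2.2-fold in Ring1b_KD (log2 fold change -1.14 with SE 0.0903, limma adjusted p = 1.8e-05). The difference between the knockdowns passed too (log2 fold change 0.42, 95% interval 0.23 to 0.62, limma adjusted p = 0.00567). A second of its 3 probe sets fell by 0.50 and 1.08 on the log2 scale and was called in both, while the third had log2 fold changes of -0.10 and -0.02 and was not called. All 3 Setd6 calls were kept in every alternative run. Of the other SET domain genes, Setd3 (an actin histidine methyltransferase), Setd4 and Setd5, none was called, with log2 fold changes from -0.12 to -0.06 in CBFb_KD and from -0.16 to 0.19 in Ring1b_KD.

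Among the SMYD genes, which carry a SET domain split by a MYND zinc finger, 1 of 5 fell in each knockdown and it was a different gene. That is 20% of the group in each, beside 15.4% of all genes called in CBFb_KD and 12.2% in Ring1b_KD. Smyd5 stood at 9.20, 9.09 and 9.14 in Control, 8.80, 8.47 and 8.68 in CBFb_KD, and 9.16, 8.78 and 9.17 in Ring1b_KD. All CBFb_KD arrays were below all Control arrays, while Ring1b_KD array 2 reached down to the CBFb_KD range. Smyd5 fell 1.41-fold in CBFb_KD (log2 fold change -0.49 with SE 0.114, limma adjusted p = 0.0101), had a log2 fold change of -0.11 in Ring1b_KD, and was lower in CBFb_KD than in Ring1b_KD (log2 fold change of -0.39, limma adjusted p = 0.0315). Without CBFb_KD array 2 the first value was -0.40 and missed the threshold, and the difference was not called without CBFb_KD array 2 (-0.30) or 3 (-0.40), Ring1b_KD array 1 (-0.33) or 3 (-0.32), with only the arrays of both knockdowns in the fit (-0.39), or under the other scalings (-0.30 as deposited and -0.22 median centred). Smyd3, reported to methylate H3K4 and cytoplasmic kinases, stood at 8.50, 8.53 and 8.62 in Control, 8.39, 8.23 and 8.25 in CBFb_KD, and 7.98, 8.12 and 8.20 in Ring1b_KD. The Control arrays were highest without overlap with either knockdown. Smyd3 fell 1.36-fold in Ring1b_KD (log2 fold change -0.45 with SE 0.0849, limma adjusted p = 0.0049), while the CBFb_KD value of -0.26 missed the threshold (limma adjusted p = 0.054), as did the difference between the knockdowns (0.18, limma adjusted p = 0.156). With its 2 probe sets averaged, the second one dim, the Ring1b_KD value was -0.20 and not called. With the replicate number as a block in the CBFb_KD and Control arrays, the CBFb_KD value passed (-0.26, limma adjusted p = 0.0347, in a range of 0.0286 to 0.205 over the alternatives). Smyd1, Smyd2 and Smyd4 were not called, with values from -0.16 to 0.18 in CBFb_KD and from -0.24 to 0.18 in Ring1b_KD.

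**Figure D2:**
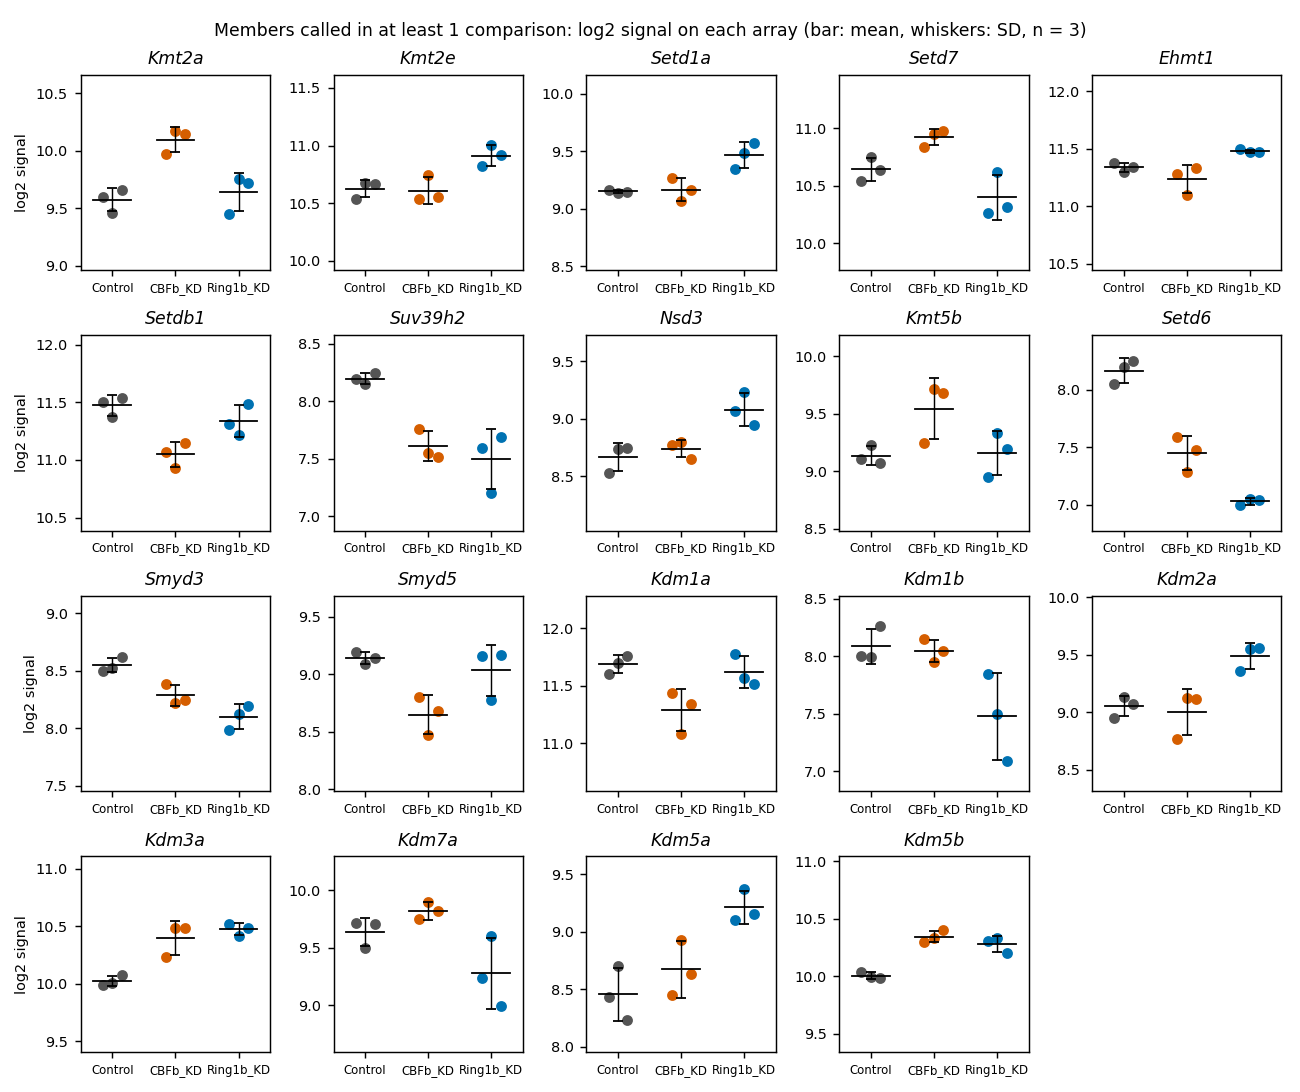
Log2 signal on each array (vertical axis) in Control, CBFb_KD and Ring1b_KD (horizontal axis) for the 19 genes called in at least 1 comparison, with a bar at the mean and whiskers of 1 SD over 3 arrays; each panel spans the same number of log2 units. Setd6 steps down from 8.17 in Control to 7.45 and 7.03, and Suv39h2 from 8.20 to 7.61 and 7.50, while Kdm3a and Kdm5b lie higher in both knockdowns than in Control.

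Of 5 measured H3K9 methyltransferase genes 2 fell in CBFb_KD (40%, beside 15.4% of all genes called), 1 fell in Ring1b_KD (20%, beside 12.2%) and none rose. Suv39h2 (chromosome 2, 3455815 to 3474986), which encodes an enzyme of H3K9 trimethylation in constitutive heterochromatin, stood at 8.19, 8.15 and 8.25 in Control, 7.76, 7.55 and 7.52 in CBFb_KD, and 7.60, 7.20 and 7.69 in Ring1b_KD. Control arrays were above all others, and the knockdowns overlapped. Suv39h2 fell 1.5-fold in CBFb_KD (log2 fold change -0.59 with SE 0.117, limma adjusted p = 0.00394) and 1.63-fold in Ring1b_KD (log2 fold change -0.70 with SE 0.117, limma adjusted p = 0.00237). The difference between them was 0.11 (95% interval -0.14 to 0.36, limma adjusted p = 0.564). Of its 3 probe sets another fell in both, by 0.48 and 0.46 on the log2 scale, and the third had values of -0.35 and -0.13 and was not called. Both calls were kept in every alternative run.

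Setdb1 (chromosome 3, 95323525 to 95357202), the H3K9 methyltransferase that TRIM28 brings to retroelements, stood at 11.51, 11.37 and 11.54 in Control, 11.07, 10.93 and 11.15 in CBFb_KD, and 11.31, 11.21 and 11.49 in Ring1b_KD. The CBFb_KD arrays were below all others. Setdb1 fell 1.34-fold in CBFb_KD (log2 fold change -0.42 with SE 0.0887, limma adjusted p = 0.00543), kept in every alternative, with a log2 fold change of -0.14 in Ring1b_KD. Setdb1 was also lower in CBFb_KD than in the other knockdown (-0.29, limma adjusted p = 0.0369), but not as deposited (-0.18), with median centring (-0.10), with the mean of 3 probe sets (-0.20), with only the arrays of both knockdowns in the fit (-0.29), or without CBFb_KD array 1 (-0.30) or 2 (-0.23), Ring1b_KD array 1 (-0.30) or 3 (-0.21), or Control array 1 (-0.29). Ehmt1, which encodes GLP, the partner of G9a in H3K9 dimethylation, differed between the knockdowns alone. It stood at 11.37, 11.30 and 11.35 in Control, 11.28, 11.10 and 11.33 in CBFb_KD, and 11.50, 11.47 and 11.47 in Ring1b_KD, a difference of -0.24 (SE 0.0741, limma adjusted p = 0.0361) for CBFb_KD against Ring1b_KD. That call was lost as deposited (-0.15), with median centring (-0.07), with only the arrays of both knockdowns in the fit (-0.24), and without CBFb_KD array 2 (-0.17). It was also lost, with values from -0.25 to -0.23, without any 1 of the Ring1b_KD or Control arrays. Ehmt2, the gene for G9a, and Setdb2 were not called, with log2 fold changes of -0.12 and 0.07 in CBFb_KD and -0.10 and 0.13 in Ring1b_KD.

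Of 8 genes grouped as H3K4 methyltransferases 1 rose in CBFb_KD (12.5%, beside 15.4% of all genes called). In Ring1b_KD 2 others rose (25%, beside 12.2%), and none fell in either. Kmt2a (chromosome 9, 44803355 to 44881352), the gene for MLL1, stood at 9.60, 9.46 and 9.66 in Control, 9.97, 10.17 and 10.15 in CBFb_KD, and 9.45, 9.75 and 9.72 in Ring1b_KD. The CBFb_KD arrays were above all others. Kmt2a rose 1.44-fold in CBFb_KD (log2 fold change 0.52 with SE 0.0981, limma adjusted p = 0.00273), had a log2 fold change of 0.07 in Ring1b_KD (95% interval -0.14 to 0.28), and was higher in CBFb_KD than in Ring1b_KD (0.45, limma adjusted p = 0.00587). These calls were kept in every alternative run. Its second probe set rose in CBFb_KD by 0.50 too, but had a value of 0.33 in Ring1b_KD and a difference between the knockdowns of 0.17, neither of them called. Setd7, an H3K4 monomethyltransferase that also modifies other proteins, went apart in the knockdowns, at 10.54, 10.75 and 10.64 in Control, 10.84, 10.95 and 10.97 in CBFb_KD, and 10.26, 10.62 and 10.32 in Ring1b_KD. The CBFb_KD arrays lay above all others. Its difference between the knockdowns passed (0.52, SE 0.0983, limma adjusted p = 0.00254) and was kept in every alternative, while its values against Control, 0.28 in CBFb_KD and -0.24 in Ring1b_KD, missed the threshold (limma adjusted p = 0.0799 and 0.132). Setd7 was called in a fit with replicate numbers as a block in CBFb_KD (limma adjusted p = 0.0273, in a range of 0.00811 to 0.26 over the alternatives).

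Setd1a and Kmt2e, both in the H3K4 group, were higher in Ring1b_KD by small amounts. Kmt2e was placed in that group by family, and no enzyme activity was measured here. Setd1a, the catalytic subunit of a COMPASS complex, stood at 9.16, 9.14 and 9.15 in Control, 9.27, 9.06 and 9.16 in CBFb_KD, and 9.35, 9.48 and 9.57 in Ring1b_KD. Kmt2e, which encodes the SET domain protein MLL5, stood at 10.54, 10.67 and 10.67 in Control, 10.53, 10.74 and 10.55 in CBFb_KD, and 10.82, 11.001 and 10.91 in Ring1b_KD. In both genes the Ring1b_KD arrays were above all others. Setd1a rose 1.25-fold (log2 fold change 0.32 with SE 0.0842, limma adjusted p = 0.0273) and Kmt2e 1.22-fold (log2 fold change 0.29 with SE 0.0838, limma adjusted p = 0.0426), with values of 0.01 and -0.02 in CBFb_KD. Both differences between the knockdowns were called at -0.30 (limma adjusted p = 0.0236 for Setd1a and 0.023 for Kmt2e). None of these 4 calls was kept as deposited or with median centring, where the Ring1b_KD values were 0.22 and 0.14 for Setd1a and 0.17 and 0.08 for Kmt2e, or with the mean of all probe sets (0.14 and 0.08). Each rise was also lost without any 1 Control array or without Ring1b_KD array 2 or 3, with values from 0.27 to 0.32 for Setd1a and from 0.24 to 0.31 for Kmt2e, and that of Kmt2e without CBFb_KD array 3 (0.29). The differences were lost without CBFb_KD array 3 or Ring1b_KD array 2 or 3, and without CBFb_KD array 2 for Setd1a and array 1 for Kmt2e, with values from -0.30 to -0.25, and both with only the arrays of the knockdowns in the fit (-0.30). Kmt2b, Kmt2c, Kmt2d and Setd1b, which encode further MLL and SET1 enzymes, were not called, with values from 0.04 to 0.21 in CBFb_KD and from -0.09 to 0.17 in Ring1b_KD.

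Of 4 H3K36 methyltransferase genes none was called in CBFb_KD and 1 rose in Ring1b_KD (25%, beside 12.2% of all genes called). Dot1l was called in neither. Nsd3, which encodes an H3K36 dimethylase, was the gene called, at 8.53, 8.74 and 8.75 in Control, 8.77, 8.80 and 8.65 in CBFb_KD, and 9.07, 9.23 and 8.95 in Ring1b_KD. The Ring1b_KD arrays were highest. Nsd3 rose 1.33-fold there (log2 fold change 0.41 with SE 0.0952, limma adjusted p = 0.0143) and a second of its 6 probe sets rose by 0.44, while the value in CBFb_KD was 0.07 and the difference between the knockdowns -0.34 (limma adjusted p = 0.0243). The rise was not called with median centring (0.25), with the mean of all probe sets (0.26), or without Ring1b_KD array 2 (0.34) or Control array 1 (0.34). The difference was not called as deposited (-0.25), with median centring (-0.17), with that mean (-0.20), or without CBFb_KD array 3 (-0.30) or Ring1b_KD array 1 (-0.35) or 2 (-0.27). Setd2, the H3K36 trimethylase, had values of -0.08 and 0.07, with 95% intervals of -0.24 to 0.08 and -0.09 to 0.23. Nsd2 had -0.06 and -0.25 and Nsd1 0.10 and -0.13. Dot1l, the H3K79 methyltransferase, had 0.08 in CBFb_KD and -0.16 in Ring1b_KD (95% intervals -0.13 to 0.29 and -0.37 to 0.05).

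The 3 genes for H4K20 methyltransferases lay near the threshold in CBFb_KD. Kmt5a, the monomethylase that is active around mitosis, had a CBFb_KD value of -0.42 on the log2 scale (95% interval -0.71 to -0.13, limma adjusted p = 0.0549) and of -0.30 in Ring1b_KD. A second Kmt5a probe set fell by 0.46 in CBFb_KD. The chosen probe set was called in 12 of 19 alternatives, the replicate number as a block among them, with limma adjusted p from 0.00253 to 0.231. Kmt5b, which with Kmt5c adds further methyl groups to the first, stood at 9.11, 9.23 and 9.08 in Control, 9.24, 9.71 and 9.68 in CBFb_KD, and 8.95, 9.33 and 9.20 in Ring1b_KD. CBFb_KD array 1 was nearly level with Control array 2, and the other CBFb_KD arrays were well above it. Kmt5b rose 1.33-fold in CBFb_KD (log2 fold change 0.41 with SE 0.128, limma adjusted p = 0.0474). That call was lost with median centring (0.42), with the mean of 5 probe sets (0.15), and without CBFb_KD array 2 (0.32) or 3 (0.34), Ring1b_KD array 3 (0.41), or any 1 Control array (0.38 to 0.45). Kmt5c had 0.23 in CBFb_KD (limma adjusted p = 0.0925, in a range of 0.0344 to 0.332 over the alternatives) and -0.02 in Ring1b_KD. It was called in CBFb_KD in 2 of 19 alternatives, the fit on brighter genes alone and the block fit on the CBFb_KD and Control arrays.

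**Figure D3:**
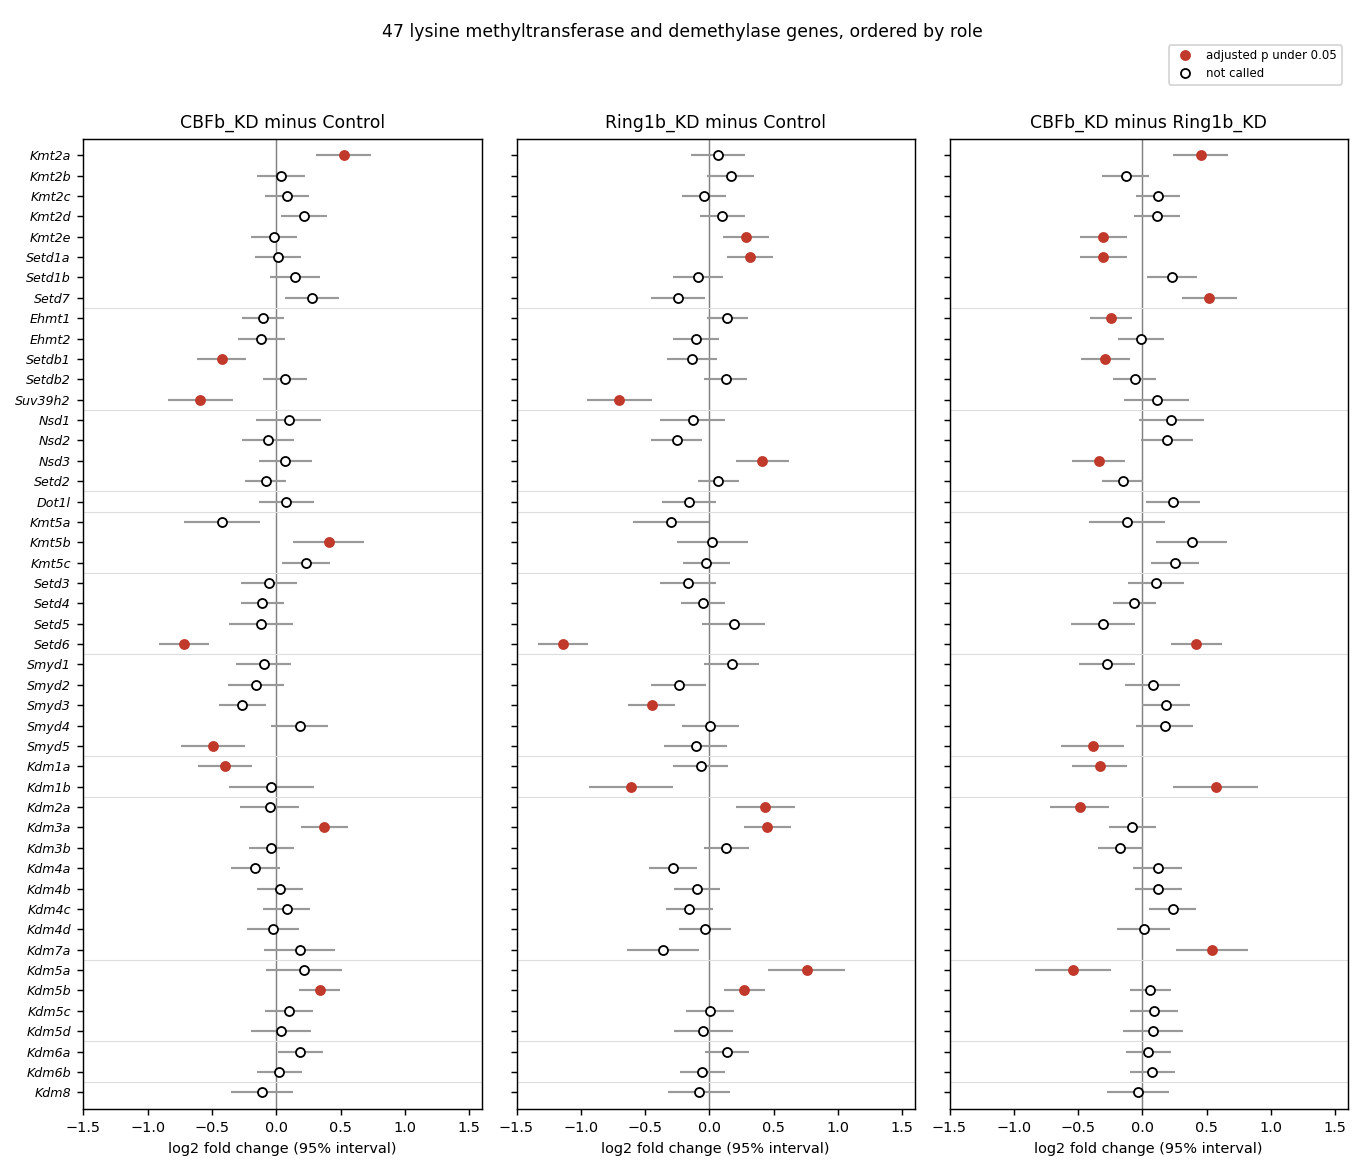
Log2 fold change (horizontal axis) of each of the 47 genes (rows, grouped by role) in the 3 comparisons, with the 95% interval of the limma fit; filled red points have an adjusted p under 0.05 and open points do not. Setd6 lies farthest to the left in both knockdowns, and Kdm5a farthest to the right in Ring1b_KD.

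The flavin-dependent demethylase genes Kdm1a and Kdm1b fell in different knockdowns. Kdm1a (chromosome 4, 136550533 to 136602787), the gene for LSD1, stood at 11.61, 11.70 and 11.76 in Control, 11.44, 11.08 and 11.34 in CBFb_KD, and 11.78, 11.57 and 11.51 in Ring1b_KD. CBFb_KD was lowest without overlap. Kdm1a fell 1.32-fold in CBFb_KD (log2 fold change -0.40 with SE 0.0987, limma adjusted p = 0.0145), had a log2 fold change of -0.07 in Ring1b_KD (95% interval -0.28 to 0.15), and was lower in CBFb_KD than in Ring1b_KD (-0.33, limma adjusted p = 0.0319). Its other probe set fell by 0.50 in CBFb_KD. The call against Control was lost without CBFb_KD array 2 (-0.30) or Control array 2 (-0.39) or 3 (-0.36). The difference was lost as deposited (-0.24), with median centring (-0.16), with only the arrays of both knockdowns in the fit (-0.33), and without CBFb_KD array 2 (-0.23) or 3 (-0.36) or Ring1b_KD array 1 (-0.25) or 2 (-0.36). Kdm1b (chromosome 13, 47043373 to 47085279), the gene for LSD2, which acts on H3K4 in gene bodies, stood at 8.001, 7.99 and 8.26 in Control, 8.14, 7.95 and 8.05 in CBFb_KD, and 7.85, 7.50 and 7.08 in Ring1b_KD. The Ring1b_KD arrays were lowest and spread over the widest range of any group in the family (SD 0.38). Kdm1b fell 1.53-fold in Ring1b_KD (log2 fold change -0.61 with SE 0.152, limma adjusted p = 0.0208), had -0.04 in CBFb_KD, and differed between the knockdowns (0.57, limma adjusted p = 0.0192). The first call was lost without Ring1b_KD array 2 (-0.62) or Control array 3 (-0.52), and the second without CBFb_KD array 1 (0.52) or 3 (0.57) or Ring1b_KD array 3 (0.38). In the fit over all 9 arrays the difference between the knockdowns passed for Kdm1a and for Kdm1b, in opposite directions.

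Of 8 JmjC genes whose products act on H3K36 or H3K9, 1 rose in CBFb_KD (12.5%, beside 15.4% of all genes called). In Ring1b_KD 2 rose (25%, beside 12.2%), and none fell in either. Kdm3a (chromosome 6, 71588970 to 71632990), an H3K9 demethylase that responds to hypoxia, stood at 9.99, 10.004 and 10.07 in Control, 10.23, 10.48 and 10.48 in CBFb_KD, and 10.52, 10.42 and 10.48 in Ring1b_KD. Control was lowest without overlap, and the knockdowns overlapped. Kdm3a rose 1.3-fold in CBFb_KD (log2 fold change 0.37 with SE 0.0838, limma adjusted p = 0.00819), kept in every alternative, and 1.37-fold in Ring1b_KD (0.45, limma adjusted p = 0.00433), kept in all but median centring (0.27). The knockdowns differed by -0.08 (95% interval -0.26 to 0.10). Kdm2a, an H3K36 demethylase that binds unmethylated CpG islands, stood at 8.95, 9.13 and 9.07 in Control, 8.77, 9.12 and 9.11 in CBFb_KD, and 9.35, 9.55 and 9.56 in Ring1b_KD, where all arrays were highest. Kdm2a rose 1.35-fold in Ring1b_KD (log2 fold change 0.44 with SE 0.106, limma adjusted p = 0.0182) and differed between the knockdowns (-0.49, limma adjusted p = 0.00637), with -0.05 in CBFb_KD. The rise was not called as deposited (0.34), with median centring (0.26), or without Ring1b_KD array 2 (0.40) or 3 (0.40) or Control array 1 (0.39) or 3 (0.45), and the difference was not called with median centring (-0.29). Its 6 other probe sets had values from -0.07 to 0.17 in Ring1b_KD, none called, and with the mean of all 7 the rise was 0.11 and the difference -0.09, both not called. Kdm7a, which acts on H3K9 and H3K27, differed between the knockdowns in every alternative (0.54, SE 0.129, limma adjusted p = 0.0104), at 9.71, 9.50 and 9.70 in Control, 9.75, 9.90 and 9.82 in CBFb_KD, and 9.24, 9.60 and 8.99 in Ring1b_KD. Against Control its values were 0.18 and -0.36, and neither was called. Kdm3b and the 4 Kdm4 genes were not called, with values from -0.16 to 0.08 in CBFb_KD and from -0.28 to 0.13 in Ring1b_KD, where Kdm4a came nearest (-0.28, limma adjusted p = 0.0533).

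Of the 4 Kdm5 genes, which encode the H3K4 demethylases of the JARID1 group, 1 rose in CBFb_KD and 2 rose in Ring1b_KD. These are 25% and 50% of the group, beside 15.4% and 12.2% of all genes called. Kdm5b (chromosome 1, 134560178 to 134632878) stood at 10.04, 9.99 and 9.98 in Control, 10.30, 10.33 and 10.40 in CBFb_KD, and 10.31, 10.33 and 10.20 in Ring1b_KD. Control was lowest without overlap. Kdm5b rose 1.26-fold in CBFb_KD (log2 fold change 0.34 with SE 0.0724, limma adjusted p = 0.00639) and 1.21-fold in Ring1b_KD (0.27, limma adjusted p = 0.0268), and the knockdowns differed by 0.06 (95% interval -0.09 to 0.22). The rise in CBFb_KD was lost with the mean of its 4 probe sets (0.11). The rise in Ring1b_KD was lost with that mean (0.04), as deposited (0.17), with median centring (0.08), and without Ring1b_KD array 1 (0.26) or 2 (0.25) or any 1 Control array (0.26 to 0.29). Kdm5a (chromosome 6, 120364099 to 120444574) stood at 8.43, 8.70 and 8.23 in Control, 8.45, 8.93 and 8.64 in CBFb_KD, and 9.11, 9.37 and 9.16 in Ring1b_KD. The Ring1b_KD arrays were above all others, and the other groups overlapped. Kdm5a rose 1.69-fold in Ring1b_KD (log2 fold change 0.76 with SE 0.137, limma adjusted p = 0.00363), had 0.22 in CBFb_KD, and differed between the knockdowns (-0.54, limma adjusted p = 0.0146). Its 5 other probe sets had values from -0.13 to 0.05 in Ring1b_KD, and with the mean of all 6 the rise was 0.10 and the difference -0.06, both not called. The difference was also lost as deposited (-0.44), with median centring (-0.36), and without CBFb_KD array 1 (-0.43) or 3 (-0.52) or Ring1b_KD array 2 (-0.46). Kdm5c and Kdm5d, on the X and Y chromosomes, were not called, and Kdm5d had the dimmest probe set of the family (5.53 over 9 arrays). Kdm1a had the brightest (11.53), but signals of different probe sets are not comparable as transcript amounts.

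The H3K27 demethylase genes, Kdm6a (UTX) and Kdm6b (JMJD3), oppose the mark of Polycomb repressive complex 2. On the chosen probe sets neither was called, with 0.19 and 0.02 in CBFb_KD (95% intervals 0.01 to 0.36 and -0.15 to 0.20) and 0.14 and -0.05 in Ring1b_KD (-0.04 to 0.31 and -0.23 to 0.12). For Kdm6b the probe sets disagreed. A nearly as bright second one rose by 0.55 in CBFb_KD (limma adjusted p = 0.00971 over all probe sets), had -0.28 in Ring1b_KD, and stood 0.83 higher in CBFb_KD than in Ring1b_KD (limma adjusted p = 0.000577). Kdm8, a JmjC protein with little established demethylase activity, had -0.11 and -0.08 and was not called.

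Other genes read as uncalled on their chosen probe set also had a probe set that was called. Of 9 Kdm5c probe sets 1 fell in Ring1b_KD, by 0.43 on the log2 scale, where the chosen one had 0.01. Of 4 Kmt2c probe sets 1 rose in Ring1b_KD by 0.51, where the chosen one had -0.04. A Nsd2 probe set fell in Ring1b_KD by 0.34, where the chosen one had -0.25. Between the knockdowns a called Kmt2d probe set was lower in CBFb_KD (-0.45), where the chosen one had 0.11. The called Kmt2c probe set was lower there too (-0.38), where the chosen one had 0.12. A Smyd1 probe set was called lower in CBFb_KD (-0.43) and a Nsd1 probe set higher (0.63), where the chosen ones had -0.27 and 0.23. The Kdm5c probe set that fell was called higher in CBFb_KD (0.42), as was another (0.39), where the chosen one had 0.09. Of the 47 genes 35 had more than 1 probe set, 137 probe sets in all. Probe sets can read different 3′ ends or unspliced RNA, and which part each one reads was not analysed here.

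**Figure D4:**
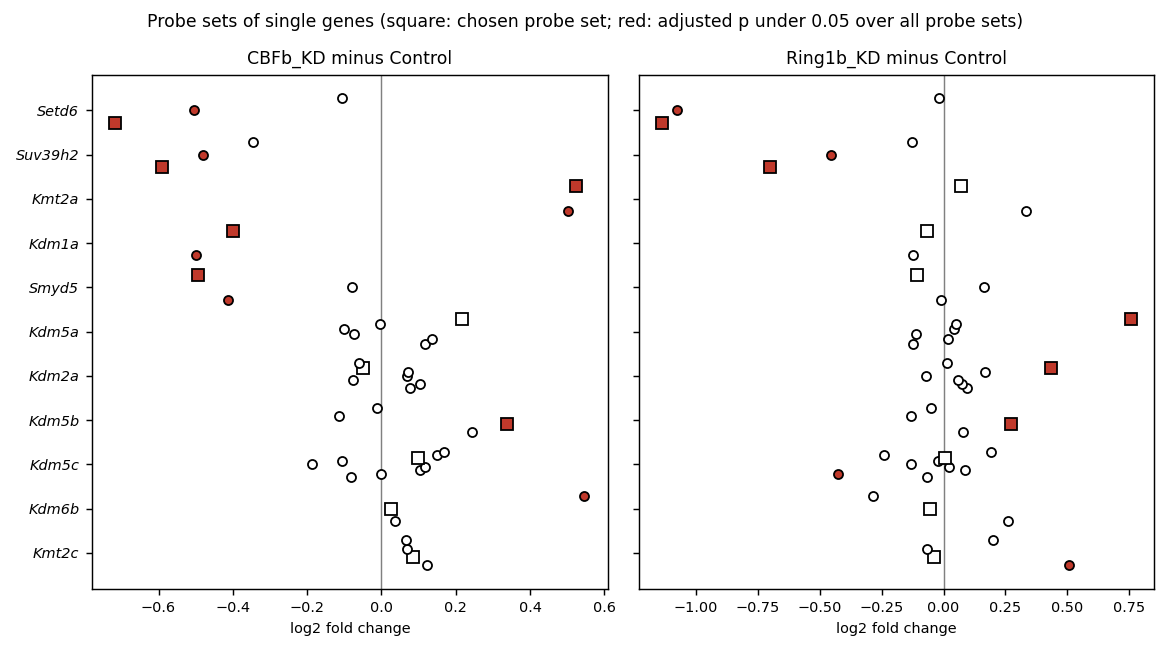
Log2 fold change (horizontal axis) of every single-symbol probe set of 11 genes (rows) in CBFb_KD and Ring1b_KD against Control, with a different scale in each panel; squares are the probe sets used for the gene, circles the others, and red marks an adjusted p under 0.05 over all probe sets. Setd6, Suv39h2, Kmt2a, Kdm1a and Smyd5 have more than 1 red symbol in a panel, while the red symbols of Kdm5a, Kdm2a, Kdm5b, Kdm6b, Kdm5c and Kmt2c stand alone.

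Partners of these enzymes, from lists drawn up for this purpose, were read in the same fit. Of 13 subunits and partners of H3K4 methyltransferase complexes 3 fell in CBFb_KD and none rose (23.1%, beside 15.4% of all genes). They were Wdr5, a core subunit of all such complexes (-0.61, limma adjusted p = 0.00148), Paxip1 (-0.46) and Dpy30 (-0.27). The count was 1 when CBFb_KD array 2, Control array 2 or Control array 3 was left out and 7 when the replicate number entered as a block on the CBFb_KD and Control arrays. In Ring1b_KD none of the 13 was called by limma, with 3 at an unadjusted p under 0.05; as deposited 2 were lower, with median centring 3, and without CBFb_KD array 2 or 3 it was 1 higher. Wdr5 was also lower in CBFb_KD than in Ring1b_KD (-0.41, limma adjusted p = 0.0151). In all 7 of the 13 were lower there (53.8%, beside 19.4% of all genes). That count was 2 lower and 1 higher as deposited and 0 lower and 1 higher with median centring. Without CBFb_KD array 2 it was 3, and without CBFb_KD array 3 or Ring1b_KD array 1 it was 4. Of the brighter genes 31.8% were called in CBFb_KD and 38.9% between the knockdowns. These counts of 13 genes are not read as a result about the list.

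Of 14 measured LSD1 complex partners 2 fell in CBFb_KD, the corepressor Rcor2 (-0.42) and the deacetylase Hdac2 (-0.29), and in Ring1b_KD Hdac2 (-0.52) and Ctbp1 (-0.39) fell and Hdac1 rose (0.35). These are 14.3% and 21.4% of the list, beside 15.4% and 12.2% of all genes and 31.8% and 26.9% of the brighter genes. Neither count is read as a result about the list. The count in CBFb_KD was 1 without any 1 of the CBFb_KD arrays, Ring1b_KD array 2 or Control array 2, and 0 without Control array 1 or 3. With median centring 0 were higher and 6 lower in Ring1b_KD, where 352 of all genes were higher and 2543 lower. Gfi1 and Gfi1b, the DNA-binding partners of LSD1 in blood cells, were not called, with 0.00 and 0.10 in CBFb_KD and -0.01 and -0.15 in Ring1b_KD. Between the knockdowns Ctbp1 (0.41) and Rcor3 (0.43) were higher and Hdac1 (-0.35) lower in CBFb_KD. These are 21.4% of the list, beside 19.4% of all genes and 38.9% of the brighter genes. With median centring the count was 7 higher and 0 lower, where 2725 of all genes were higher and 512 lower. These counts are likewise not read as a result about the list.

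Of 11 readers and partners of H3K9 methylation 4 fell in CBFb_KD (36.4%, beside 15.4% of all genes) and 3 in Ring1b_KD (27.3%, beside 12.2%), and none rose. Uhrf1, which links H3K9 methylation to DNA methylation at replication, fell by 1.03 and 0.49 on the log2 scale and was lower in CBFb_KD than in Ring1b_KD (-0.54, limma adjusted p = 0.0141). Wiz, a partner of G9a and GLP, fell by 0.33 and 0.37. Trim28, which recruits SETDB1, fell in CBFb_KD by 0.47 (limma adjusted p = 0.00439) and had -0.04 in Ring1b_KD, with a difference of -0.43 (limma adjusted p = 0.00681). Cbx1, an HP1 reader of H3K9 methylation, fell in CBFb_KD by 0.42 and had 0.14 in Ring1b_KD, with a difference of -0.55 (limma adjusted p = 0.000515). Cdyl fell in Ring1b_KD by 0.32. The count in Ring1b_KD was 0 without Control array 2 or 3 and 1 without Ring1b_KD array 1 or 2. Between the knockdowns 3 were higher and 3 lower in CBFb_KD (54.5%, beside 19.4%). The shares of the brighter genes were 31.8%, 26.9% and 38.9%, so these counts of 11 genes are not read as a result about the list.

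Of 10 partners of DOT1L and of elongation complexes, Mllt3, the gene for the DOT1L partner AF9, fell 1.90-fold in Ring1b_KD, from 9.46 ± 0.07 (SD, n = 3) in Control to 8.53 ± 0.28 (log2 fold change of -0.93, limma adjusted p = 0.000483). It stood at 9.45 ± 0.10 in CBFb_KD and was higher there than in Ring1b_KD (0.92, limma adjusted p = 0.000183). Aff4, the scaffold of the super elongation complex, rose in CBFb_KD by 0.42. It was the 1 gene of this list called there (10%, beside 15.4% of all genes). Without CBFb_KD array 2 or Control array 3 that count went to 0, as it did with the mean of all probe sets. Mllt3 was the 1 gene of the list called in Ring1b_KD (10%, beside 12.2% of all genes). Without Ring1b_KD array 1, 1 of the 10 was higher in Ring1b_KD beside Mllt3. Aff1 was the other gene called between the knockdowns (0.44), where 20% of the list were called, beside 19.4% of all genes. Without CBFb_KD array 2 or Ring1b_KD array 3 only 1 of the 10 was called there.

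Of 17 measured genes for other lysine methylation enzymes 2 rose and 2 fell in CBFb_KD (23.5%, beside 15.4% of all genes). In Ring1b_KD 1 rose and 2 fell (17.6%, beside 12.2%). The shares of the brighter genes were 31.8% and 26.9%, so these counts of 17 genes are not read as a result about the list. Prdm1, the gene for the repressor BLIMP1, a PR domain protein without established methyltransferase activity of its own, rose 3.74-fold in CBFb_KD, from 5.80 ± 0.22 to 7.70 ± 0.27 (log2 fold change of 1.90, limma adjusted p = 3e-06), and 1.82-fold in Ring1b_KD, to 6.66 ± 0.08 (0.86, limma adjusted p = 0.00148), with a called difference of 1.04 between them. Riox2, which encodes a ribosomal oxygenase, fell in both (-0.45 and -0.51). The H3K27 methyltransferase genes parted in CBFb_KD, where Ezh2 fell by 0.61 and Ezh1 rose by 0.30, and both differed between the knockdowns (-0.79 and 0.31). Phf2, an H3K9 demethylase, fell in Ring1b_KD by 0.36.

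**Figure D5:**
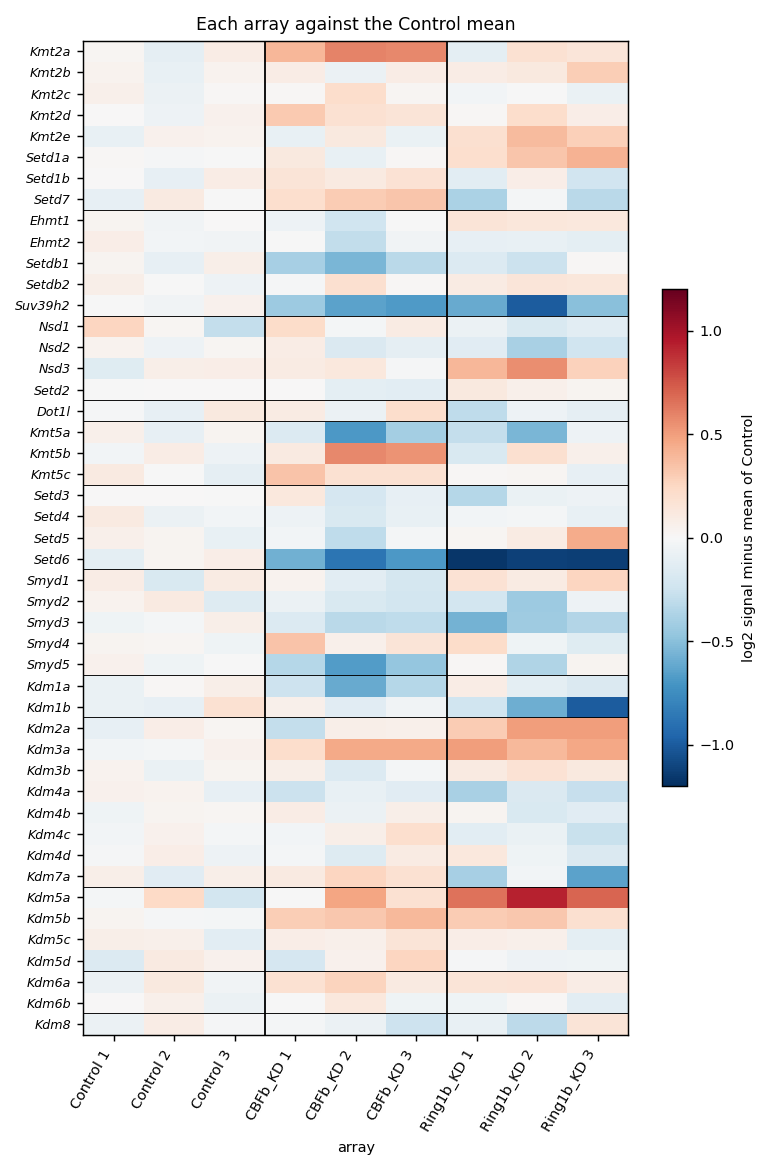
Log2 signal of each of the 47 genes (rows, grouped by role) on each of the 9 arrays (columns) minus the mean of the Control arrays; red is higher and blue lower, on a scale that ends at 1.2 log2 units in either direction. Setd6 and Suv39h2 are blue, and Kdm3a and Kdm5b red, on all 6 knockdown arrays, and the darkest square of Kdm1b is that of Ring1b_KD array 3.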

How the data were processed

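Expression was measured on 9 one-colour arrays, 3 per group. The authors deposited log2 values per probe set; their software and normalization: not given in the sources used here, and the log base was judged from the range of 3.23 to 15.35. No counts exist for arrays, and 3 arrays per group limit the precision. Of 45101 probe sets 64 controls were left out. The platform annotation gave 34958 probe sets 1 symbol, 932 several and 9160 none. The array medians spanned 0.137, so the values were quantile normalized. Each gene was read by its brightest single-symbol probe set, and 18193 genes were fitted over all 9 arrays with limma 3.58.1 in R 4.3.3 (eBayes with a trend), with Benjamini-Hochberg adjustment over all genes. The script was tested on simulated data. The members and lists were chosen with earlier results of these data known. By the rule for named genes, called members are given in full for the 12 smallest adjusted p of a comparison, other members by role group, and up to 4 called partners per list and comparison. The labels number the replicates. The deviations of same-numbered CBFb_KD and Control arrays correlated at 0.203, 0.377 and 0.200, so those numbers pair the arrays by the rule used, although the values given come from the fit without the block, while Ring1b_KD arrays did not pair with either group (-0.068 to 0.153). Alternatives covered the scaling, probe sets, filters on dim genes, variance model, arrays in the fit, replicate block and left-out arrays. Sequences and coordinates are from RefSeq, GRCm38.p6.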

Additional observations from a re-analysis of the deposited data

How the results depend on the processing

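Of 34 calls on the 47 genes in the 3 comparisons, 11 were kept under every alternative run, 23 were lost under at least 1 and 0 changed direction. Of the calls, 18 were lost without at least 1 array and 19 under another setting. With the mean of all probe sets, 4 of the 47 were called in Ring1b_KD against Control and 10 by the F test. With only the arrays of both groups compared, 8 were called between the knockdowns; the cause was not tested. Leaving out 1 array gave 6 to 11 calls among the 47 in CBFb_KD against Control, 6 to 12 in Ring1b_KD against Control, 7 to 13 between the knockdowns and 14 to 19 by the F test. Over all genes it gave 1751 to 2995, 1139 to 2365 and 2377 to 3564. The lowest counts came without CBFb_KD array 2 (6 in CBFb_KD), Control array 1 or 3 (6 in Ring1b_KD) and CBFb_KD array 3 (7 between the knockdowns). With the replicate number as a block 11 of the 47 were called in CBFb_KD, 13 in Ring1b_KD, 16 between the knockdowns and 20 by the F test, and over all genes 3142, 2611 and 3938. The block on the CBFb_KD and Control arrays alone, chosen after seeing the data as were the alternatives for the partner lists, called 13 of the 47 (6 higher and 7 lower) and 3903 of all genes. It lost none of the 9 calls and added those of Setd7, Kmt5c, Kmt5a and Smyd3.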
